A study of Mus musculus with 8 samples.

Results

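The cadherins and protocadherins are a family of membrane proteins that hold cells together, and they were examined here as 57 probe sets for 46 genes of the 22626 probe sets and 12393 genes measured in mouse brain. A probe set, a group of short probes for the same transcripts, belonged to the family if its single gene symbol on the array began with Cdh or Pcdh followed by a number, or with Pcdha, Pcdhb or Pcdhg. Cdh5, the cadherin of blood vessel endothelium, was set aside by this rule. No filter on signal was applied, so all 57 probe sets entered every test. The brains came from male C57/B6 mice 3 months of age, either with a brain-specific knockout of SIRT1 (BSKO) or wild-type littermates (WT), with 4 biological replicates of each genotype and an Affymetrix Mouse430A_2 array for each. SIRT1 is a protein deacetylase that uses NAD. The labels do not give the Cre driver or the deleted part of Sirt1, and no treatment is recorded for either group.

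Cadherins bind each other across the gap between neighbouring cells when calcium is present. The classical cadherins, of types I and II, are tied to the actin skeleton through catenins inside the cell. In the brain they sort neurons into layers and nuclei and help to build synapses. The non-clustered protocadherins are separate genes, many of them expressed in particular brain regions. The clustered protocadherins lie side by side in the alpha, beta and gamma clusters, and each neuron chooses a few of them through promoters that can be silenced by methylation, which gives the cell a surface identity. Of the 46 genes, 5 were type I classical cadherins (Cdh1, Cdh2, Cdh3, Cdh4 and Cdh15) and 7 were type II (Cdh6, Cdh8, Cdh9, Cdh10, Cdh11, Cdh20 and Cdh22). The other cadherins were 4 genes that belong to neither type (Cdh13, Cdh16, Cdh17 and Cdh23), and 8 genes were non-clustered protocadherins (Pcdh1, Pcdh7, Pcdh8, Pcdh10, Pcdh12, Pcdh15, Pcdh18 and Pcdh20). The clustered protocadherins were 22 genes, all of the beta cluster on chromosome 18 (Pcdhb1 to Pcdhb22). No member came from the alpha or gamma cluster, because no alpha or gamma gene was the single symbol of a probe set.

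All values below are deposited log2 values that had been set to a median of 0 over the 8 arrays for each probe set, so they rank a gene's arrays but hold no level of expression. Those of a gene are the mean of its probe sets, and each difference is BSKO minus WT. Array BSKO 2 stood apart: over all probe sets its SD was 0.831, against 0.15 to 0.314 on the other 7 arrays. On it the 5' probe set of beta-actin lay -2.44 from the 3' probe set, against -0.104 to 0.489 on the others, and that of Gapdh lay -2.43 from its 3' partner, against -0.0749 to 0.0949. The difference of each gene named is therefore given with all 8 arrays and without BSKO 2. The probe set of Sirt1 read 0.00, 0.00, 0.08 and 0.29 on WT 1 to 4 and 0.08, -1.46, -0.20 and -0.06 on BSKO 1 to 4. It did not differ beyond the spread between arrays (-0.50, SE 0.31, limma adjusted p = 0.504, and -0.15, SE 0.10, adjusted p = 0.401 without BSKO 2), and since the part of the gene it covers is not given, it checks no label. The number of arrays limits the precision, and in whole brain fewer cells of a type and less RNA per cell cannot be told apart.

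Of this family, 2 non-clustered protocadherins fell in BSKO brain once BSKO 2 was left out: Pcdh20 to 2.64-fold lower and Pcdh8 to 1.75-fold lower. They are 4.35% of the 46 genes, where 2.15% of all 12393 genes passed in that fit. Both calls were lost without any 1 of 6 of the remaining 7 arrays. In those 6 fits 13 to 59 of all 12393 genes passed, in place of 266. With all 8 arrays no member passed. The largest differences were those of Cdh1 and Pcdh20, and both missed the threshold there. The 22 beta protocadherins stayed close to 0, with medians of 0.08 with 8 arrays and -0.03 without BSKO 2, and none of them passed in either fit. Pcdh20 and Pcdh8 both lie on chromosome 14, with 4 protein-coding genes between them in the RefSeq annotation. The 300 bases from 250 before to 50 after their start sites (RefSeq, assembly GRCm38.p6) are printed because these are the members that passed. Beside them stand the same windows of Pcdh18 and Pcdh10, neighbours on chromosome 3 with 1 protein-coding gene between them whose values lay in opposite directions. CG dinucleotides, at which DNA methylation is placed, are in capitals.
Pcdh20, chr14:88471347-88471646, minus strand: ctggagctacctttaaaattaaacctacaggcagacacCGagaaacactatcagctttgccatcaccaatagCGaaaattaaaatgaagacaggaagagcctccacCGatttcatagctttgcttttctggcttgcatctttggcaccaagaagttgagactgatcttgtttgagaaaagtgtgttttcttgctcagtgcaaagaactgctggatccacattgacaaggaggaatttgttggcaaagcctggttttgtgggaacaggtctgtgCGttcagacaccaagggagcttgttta
Pcdh8, chr14:79771263-79771562, minus strand: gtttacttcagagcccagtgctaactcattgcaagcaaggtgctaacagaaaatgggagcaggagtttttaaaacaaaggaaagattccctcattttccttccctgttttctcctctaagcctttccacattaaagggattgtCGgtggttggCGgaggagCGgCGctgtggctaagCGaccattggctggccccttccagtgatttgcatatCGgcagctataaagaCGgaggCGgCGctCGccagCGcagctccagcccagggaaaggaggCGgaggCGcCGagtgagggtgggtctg
Pcdh18, chr3:49757267-49757566, minus strand: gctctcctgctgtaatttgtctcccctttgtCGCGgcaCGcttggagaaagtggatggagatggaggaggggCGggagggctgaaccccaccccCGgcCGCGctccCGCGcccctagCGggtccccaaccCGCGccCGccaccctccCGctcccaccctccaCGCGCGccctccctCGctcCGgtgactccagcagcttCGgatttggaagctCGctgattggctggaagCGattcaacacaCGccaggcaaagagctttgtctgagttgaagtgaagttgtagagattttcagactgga
Pcdh10, chr3:45378148-45378447, plus strand: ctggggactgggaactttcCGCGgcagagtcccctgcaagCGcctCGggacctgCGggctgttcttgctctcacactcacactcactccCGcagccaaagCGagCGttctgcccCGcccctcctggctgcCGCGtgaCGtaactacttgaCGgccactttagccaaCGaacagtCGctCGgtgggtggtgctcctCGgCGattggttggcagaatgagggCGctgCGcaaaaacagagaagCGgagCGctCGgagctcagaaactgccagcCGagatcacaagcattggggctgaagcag

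These windows differed in how many CG dinucleotides they held. Pcdh20 had 4 and Pcdh8 had 14, while Pcdh18 had 23 and Pcdh10 had 24. Over the 32851 windows of the same length in the RefSeq table the median was 7, and 94.6% held at least 1. The window of Pcdh20 was thus the poorest of the 4, with 38.0% of all windows holding as many or fewer. The motif CGCT, the core of a conserved element in clustered protocadherin promoters, was searched on both strands and overlaps CG. It was found 1 time for Pcdh20, 5 for Pcdh8, 7 for Pcdh18 and 8 for Pcdh10, and 61.8% of all windows hold it. TATAAA, searched on both strands, was found 1 time for Pcdh8 and in none of the other 3 windows, and 13.6% of all windows hold it. Such matches describe the letters of the windows. They were present for 14 of the 46 genes, and no DNA methylation or binding was measured here.

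Pcdh20 was the member with the smallest p in either fit. It is a non-clustered protocadherin, measured by 2 probe sets. Its gene value was 1.13, 1.15, 0.36 and 0.32 on WT 1 to 4 and -0.54, -0.56, -0.73 and -0.72 on BSKO 1 to 4. Every BSKO array thus lay below every WT array, and within WT the first 2 arrays lay well above the other 2. The difference was -1.38 (SE 0.21), 2.6-fold lower, from 0.74 ± 0.46 (SD, n = 4) in WT to -0.64 ± 0.10 (SD, n = 4) in BSKO. With 8 arrays it missed the threshold of 0.05 (limma adjusted p = 0.0732, Benjamini-Hochberg over all 12393 genes), where 9 genes, or 0.0726% of all, passed. Without BSKO 2 the difference was -1.40 (SE 0.23) and passed (limma adjusted p = 0.03). In that fit 266 genes passed, or 2.15% of all. An exact permutation test of the gene alone gave p = 0.0286 both with 8 arrays (70 arrangements) and without BSKO 2 (35 arrangements), the smallest p that either design allows in a two-sided test.

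The probe sets of Pcdh20 fell together. Probe set 1451454_at read 1.35, 1.43, 0.56 and 0.39 on WT 1 to 4 and -0.45, -0.98, -0.39 and -0.56 on BSKO 1 to 4. For 1424701_at the values were 0.91, 0.86, 0.15 and 0.25 on the WT arrays and -0.62, -0.15, -1.06 and -0.88 on the BSKO arrays. In both, the groups did not overlap. Without BSKO 2 each differed by -1.40 and passed over all probe sets (limma adjusted p = 0.0446 and 0.0281), and these were the 2 of 57 member probe sets, or 3.51%, that did so. Over all 22626 probe sets 369, or 1.63%, passed in that fit. With 8 arrays 0 of 57 passed by limma, and 8 (14.0%) had an unadjusted p under 0.05, against 10.8% of all probe sets. Over all probe sets 7, or 0.0309%, passed with 8 arrays. Among replicates 1 and 2 alone the gene differed by -1.69 (-1.68 for BSKO 1 without BSKO 2), and among replicates 3 and 4 by -1.06.

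The call for Pcdh20 rested on nearly every array. Without BSKO 2, it was lost when WT 1, WT 2, WT 3, WT 4, BSKO 3 or BSKO 4 was also left out (limma adjusted p from 0.0558 to 0.0976) and kept without BSKO 1 (0.0308). Through all of these the difference stayed between -1.54 and -1.26. Over all genes, 13 to 59 passed in the fits that lost it and 814 without BSKO 1, in place of 266. WT 1 and WT 2 also stood apart in marker genes of cell types. The median of 7 measured markers of striatal projection neurons read -1.94, -1.79, 0.01 and -0.08 on WT 1 to 4, and 0.06 to 1.12 on the BSKO arrays. Every WT array thus lay below every BSKO array, so this median cannot be fully told apart from genotype. As a covariate it left 0 of all 12393 genes passing in either fit. With that median as a covariate, the difference of Pcdh20 without BSKO 2 was -0.74 (limma adjusted p = 0.115), within a range of 0.00551 to 0.181 over all settings tried. With 8 arrays the range was 0.00488 to 0.492, and Pcdh20 passed with quantile normalization (0.00488), array weights (0.00917), trend and robust settings (0.00934) and a term for replicates 1 and 2 against 3 and 4 (0.0138). Markers of dentate gyrus granule neurons, of which 6 of 8 were measured, had medians of 0.69, 0.75, 0.03 and 0.00 on WT 1 to 4 and -0.27, 0.12, -0.37 and -0.39 on BSKO 1 to 4. Their part in the result was not tested.

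Pcdh8 belongs to the delta group of protocadherins. In rodents it is known as arcadlin, a protein made after synaptic activity that draws N-cadherin into the cell. On its single probe set it read 0.09, -0.03, 0.03 and 0.29 on WT 1 to 4 and -0.32, 0.47, -0.91 and -0.91 on BSKO 1 to 4. BSKO 2 lay above every WT array and the other 3 BSKO arrays below every WT array. With 8 arrays the groups thus overlapped and the difference was -0.51 (SE 0.29, limma adjusted p = 0.476). Without BSKO 2 it was -0.81 (SE 0.16) and passed as a gene (limma adjusted p = 0.0459). Over all probe sets the same values did not pass (0.0512). Within replicates 1 and 2 the difference was 0.04 with BSKO 2 included and -0.35 for BSKO 1 against the mean of WT 1 and WT 2. Within replicates 3 and 4 it was -1.07. Without BSKO 2, the call was kept when BSKO 1 was left out too (-1.0, adjusted p = 0.00989) and lost without any 1 of WT 1, WT 2, WT 3, WT 4, BSKO 3 and BSKO 4 (0.0922 to 0.134). It was also lost with trend and robust settings (0.183). Over all settings without BSKO 2 its adjusted p ran from 0.00936 to 0.382.

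**Figure D1:**
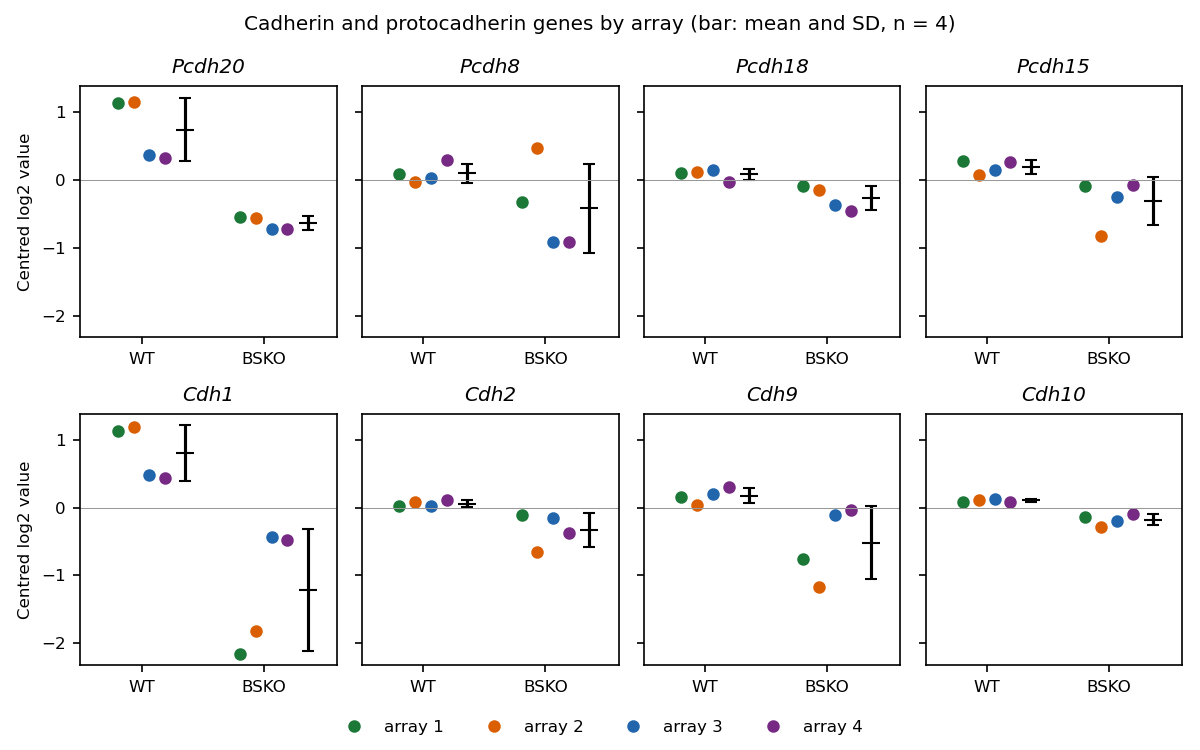
Centred log2 value (vertical axis) of 8 cadherin and protocadherin genes on each WT and BSKO array, coloured by replicate number, with the mean and SD (n = 4) as a bar. For Pcdh20 the WT arrays lie from 0.32 to 1.15 and the BSKO arrays from -0.73 to -0.54, and for Pcdh8 array BSKO 2, at 0.47, lies above the WT arrays.

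The other non-clustered protocadherins gave no call. Pcdh18, a second delta protocadherin, read 0.10, 0.11, 0.15 and -0.03 on WT 1 to 4 and -0.09, -0.15, -0.37 and -0.46 on BSKO 1 to 4. Its groups did not overlap, and its difference was -0.35 (SE 0.11, limma adjusted p = 0.292), or -0.39 (SE 0.10, adjusted p = 0.0883) without BSKO 2. All 3 of its probe sets lay lower, by -0.56, -0.43 and -0.06 with 8 arrays and by -0.40, -0.62 and -0.14 without BSKO 2. But on BSKO 2 they read -0.93, 0.24 and 0.23. With 8 arrays the groups overlapped on 1422889_at and 1430427_a_at, so only the gene mean and 1422890_at of Pcdh18 kept them apart. Its neighbour Pcdh10, which is needed for the growth of striatal axons, had a gene difference of 0.39 (SE 0.17, limma adjusted p = 0.411). That value came from probe set 1421311_at (0.73, with 1.5 on BSKO 2), while 1425563_s_at differed by 0.04. Without BSKO 2 these were 0.42 and 0.06 and the gene difference was 0.24 (limma adjusted p = 0.275). Over replicates 1 and 2 Pcdh10 differed by 0.63 (0.27 for BSKO 1 alone) and over 3 and 4 by 0.14.

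Pcdh15 and Cdh23 together form the tip link that opens the transduction channel of inner ear hair cells. Pcdh15 read 0.28, 0.07, 0.15 and 0.27 on WT 1 to 4 and -0.09, -0.82, -0.25 and -0.07 on BSKO 1 to 4, with no overlap. Its difference was -0.50 (SE 0.17, limma adjusted p = 0.319), or -0.33 (SE 0.08, adjusted p = 0.0788) without BSKO 2. Its partner Cdh23 overlapped between genotypes, with values of 0.09, 0.02, -0.05 and -0.04 in WT and -0.01, 0.53, -0.10 and -0.03 in BSKO. The difference of Cdh23 was 0.09 (limma adjusted p = 0.76) and, without BSKO 2, -0.05, where its probe sets read 0.03 and -0.14. The endothelial protocadherin Pcdh12 was the 1 member whose BSKO arrays all lay above the WT arrays, by 0.42 (limma adjusted p = 0.441) with BSKO 2 at 0.94, and by 0.21 (0.232) without BSKO 2. The medians of 9 measured endothelial markers ran from -0.05 to 0.07 on the WT arrays and from -0.10 to 0.04 on the BSKO arrays. Pcdh7 (0.06, and 0.02 without BSKO 2) and Pcdh1 (-0.08, and 0.03) differed by less than the spread between arrays. The 2 probe sets of Pcdh7 pointed opposite ways, at 0.15 and -0.02 with 8 arrays and 0.19 and -0.15 without BSKO 2.

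Cdh1, or E-cadherin, holds epithelial cells together and is also made in the leptomeninges that cover the brain. Of all members it had the largest difference. It read 1.13, 1.19, 0.48 and 0.43 on WT 1 to 4 and -2.15, -1.82, -0.43 and -0.47 on BSKO 1 to 4. The genotypes did not overlap, and within each of them replicates 1 and 2 lay farther from 0 than replicates 3 and 4. The difference was -2.03 (SE 0.42), 4.07-fold lower, and did not pass (limma adjusted p = 0.13), nor did it without BSKO 2 (-1.83, SE 0.43, adjusted p = 0.0728). With 8 arrays it passed with quantile normalization (0.0204) and array weights (0.0226), within a range of 0.0204 to 0.604 over all settings. Without BSKO 2 it passed with array weights (0.0312) and trend and robust settings (0.0474). In replicates 1 and 2 it was -3.14 (-3.31 for BSKO 1 alone) and in replicates 3 and 4 it was -0.91. With both BSKO 1 and BSKO 2 left out it was -1.26 and passed (limma adjusted p = 0.0326, within 0.0312 to 0.379 over all settings without BSKO 2). The exact permutation p was 0.0286 with and without BSKO 2, again the smallest possible.

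Markers of meninges and fibroblasts had the same direction as Cdh1. All 12 listed markers were measured and all 12 lay lower in BSKO, with medians of 0.60, 0.70, 0.10 and 0.13 on WT 1 to 4 and -0.52, -0.50, -0.33 and -0.22 on BSKO 1 to 4. Without BSKO 2, 3 of the 12 fell, with differences of -0.85 for Lum, -1.39 for Ogn and -1.28 for Aldh1a2 (limma adjusted p from 0.03 to 0.0455). In that fit 2.15% of all genes passed. Stxbp6 of the dentate granule neuron markers (-0.49, limma adjusted p = 0.03) fell there too. So did Neurod1 (-1.38, limma adjusted p = 0.0125), listed among 10 cerebellar neuron markers of which 6 lay lower. Neurod1 also fell with 8 arrays (-1.31, limma adjusted p = 0.0495). The direction was not particular to the meningeal list. With 8 arrays 6 of 6 measured dentate granule neuron markers and 9 of 10 astrocyte markers lay lower too. Of the 7 measured striatal markers 0 did. The median of 6 measured markers of choroid plexus, an epithelial tissue of the brain, ran from -0.16 to 0.07 on the WT arrays. On BSKO 1 to 4 it was 0.50, 0.01, 0.11 and -2.04. The part of any marker list in the values of Cdh1 was not tested. Cdh3, or P-cadherin, is the next gene to Cdh1 on chromosome 8. It read 0.00, 0.13, 0.02 and 0.00 in WT and 0.00, 0.93, -0.18 and -0.13 in BSKO, a difference of 0.12 (limma adjusted p = 0.803), or -0.14 without BSKO 2.

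**Figure D2:**
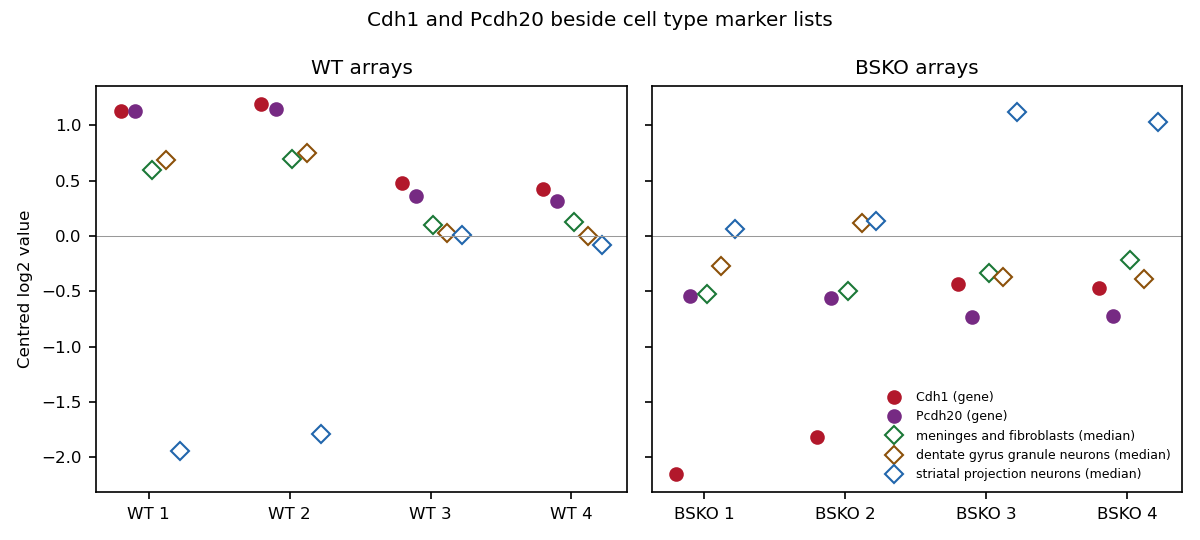
Centred log2 value (vertical axis) of Cdh1 and Pcdh20 on each array (filled circles) beside the per-array median of 3 marker lists (open diamonds), WT arrays on the left and BSKO arrays on the right. On WT 1 and WT 2 both genes are at 1.13 to 1.19 and the striatal median is at -1.94 and -1.79.

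Cdh2, or N-cadherin, is the main classical cadherin of neurons and their synapses. It read 0.02, 0.09, 0.02 and 0.11 on WT 1 to 4 and -0.11, -0.66, -0.16 and -0.37 on BSKO 1 to 4, so that every BSKO array lay lower. The difference was small and did not pass (-0.39, SE 0.13, limma adjusted p = 0.319, and -0.27, SE 0.08, adjusted p = 0.114 without BSKO 2). Its probe sets shared the direction, at -0.56 and -0.21 with 8 arrays and -0.20 and -0.34 without BSKO 2, but on BSKO 2 they read -1.57 and 0.24. Cdh4, the retinal cadherin, overlapped and lay the other way. Its values were -0.31, -0.47, 0.04 and 0.00 in WT and 0.19, 0.68, 0.15 and -0.08 in BSKO. The low WT values were those of WT 1 and WT 2, and the difference of 0.42 (SE 0.18, limma adjusted p = 0.409) was 0.83 over replicates 1 and 2 (0.59 for BSKO 1 alone) and 0.01 over replicates 3 and 4. Without BSKO 2 it was 0.27 (limma adjusted p = 0.301). Cdh15, the cadherin of muscle, differed by 0.15 and, without BSKO 2, by 0.06.

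Among the type II cadherins, Cdh9 and Cdh10 had groups that did not overlap. They are direct neighbours on chromosome 15, and Cdh9 is known for its part in the synapses from dentate granule neurons to CA3 of the hippocampus. Cdh9 read 0.16, 0.04, 0.20 and 0.31 on WT 1 to 4 and -0.75, -1.17, -0.11 and -0.04 on BSKO 1 to 4. The gap was wide on BSKO 1 and BSKO 2 and narrow on the other BSKO arrays, and the difference of -0.70 (SE 0.24) did not pass (limma adjusted p = 0.337, and -0.48 with 0.168 without BSKO 2). Cdh10 read 0.09, 0.12, 0.13 and 0.09 in WT and -0.14, -0.28, -0.19 and -0.09 in BSKO. Its spread was small in both genotypes, and so was its difference, -0.28 (SE 0.08, limma adjusted p = 0.26) or -0.25 (SE 0.06, adjusted p = 0.0706) without BSKO 2. Cdh6, the neighbour of Cdh9 on its other side, overlapped and differed by 0.12 and, without BSKO 2, by 0.19.

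The other 4 type II cadherins overlapped between genotypes. Cdh22 read -0.36, -0.24, 0.30 and 0.03 in WT and -0.03, 0.68, -0.09 and 0.52 in BSKO, a difference of 0.34 (limma adjusted p = 0.521), or 0.20 (0.597) without BSKO 2. Cdh8, which is made by subsets of cortical and striatal neurons, differed by 0.16 with 8 arrays and by 0.42 without BSKO 2 (limma adjusted p = 0.236), since BSKO 2 was its lowest array at -0.83. Cdh20 turned from 0.13 to -0.32 (limma adjusted p = 0.193) when BSKO 2, at 1.63, was left out. Cdh11 differed by 0.03 and, without BSKO 2, by -0.08. Some members also varied within WT. The mean of WT 1 and WT 2 minus that of WT 3 and WT 4 was 0.80 for Pcdh20, 0.70 for Cdh1 and 0.58 for Cdh8. It was -0.47 for Cdh22, -0.41 for Cdh4, 0.39 for the beta gene Pcdhb7, 0.34 for Cdh20 and -0.33 for Pcdh10. These genes were picked for their size. The median size of this difference was 0.10 over type I cadherins, 0.18 over type II, 0.07 over the other cadherins, 0.14 over non-clustered protocadherins and 0.09 over the beta genes, against 0.09 over all genes.

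The remaining cadherins showed little. Cdh13, or T-cadherin, is held to the membrane by a lipid anchor and has no part inside the cell. It read -0.05, -0.02, 0.02 and -0.01 in WT and 0.00, -1.05, 0.11 and -0.06 in BSKO, a difference of -0.23 (limma adjusted p = 0.65) that BSKO 2 alone made, since without it the difference was 0.03. Its 3 probe sets pointed different ways, at -0.93 (1454015_a_at, with -2.84 on BSKO 2), 0.25 (1431824_at) and -0.02 (1423551_at) with 8 arrays, and at -0.26, 0.05 and 0.31 without BSKO 2. Cdh17, the cadherin of liver and intestine, read 0.04, -0.04, 0.10 and -0.09 in WT and 0.13, 0.07, -0.35 and -0.25 in BSKO, a difference of -0.10 (limma adjusted p = 0.703), or -0.16 (0.463) without BSKO 2. Cdh16, the cadherin of kidney, differed by 0.00 and, without BSKO 2, by 0.02.

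The beta protocadherins are adhesion proteins of neurons whose genes have no introns and lie in a row. None of the 22 had groups apart with 8 arrays, and their differences ran from -0.32 to 0.39. The smallest adjusted p by limma was 0.457 with 8 arrays and 0.16 without BSKO 2, and at an unadjusted p under 0.05 there were 0 and 1 genes. Pcdhb12 read 0.29, -0.04, 0.08 and 0.12 in WT and -0.15, -0.67, 0.00 and 0.00 in BSKO, a difference of -0.32 (limma adjusted p = 0.457), or -0.16 without BSKO 2. Pcdhb20 read 0.13, 0.02, -0.02 and 0.11 in WT and -0.17, -0.07, -0.15 and 0.04 in BSKO, a difference of -0.15 (limma adjusted p = 0.498), or -0.16 (0.281) without BSKO 2. For Pcdhb1 the values were -0.09, 0.01, -0.09 and 0.00 in WT and 0.00, 0.32, 0.21 and -0.10 in BSKO, a difference of 0.15 (limma adjusted p = 0.565), or 0.08 (0.635) without BSKO 2. In all 3 the genotypes overlapped. The single beta gene with groups apart without BSKO 2 was Pcdhb22, at -0.25 (limma adjusted p = 0.16). With BSKO 2, where it read 2.14, its difference was 0.33. Pcdhb14, the 1 beta gene with 2 probe sets, differed by 0.65 and 0.13 on them with 8 arrays and by 0.13 and -0.04 without BSKO 2, an array on which they read 2.1 and 0.69.

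The beta genes were scattered most widely on BSKO 2. Their medians lay between 0.00 and 0.01 on the WT arrays and at -0.05, 0.25, -0.04 and -0.03 on BSKO 1 to 4. Single values ran from -1.70 to 2.14 on BSKO 2 and from -0.58 to 1.04 on the other 7 arrays. BSKO 2 lay above all other arrays for 12 of the 22 genes (54.5%) and below them for 4 (18.2%). Over all genes these shares were 40.5% and 34.5%. Leaving BSKO 2 out moved the number of beta genes that lay lower in BSKO from 8 to 16 of 22, with all differences then between -0.25 and 0.31. Beta genes are alike in sequence, so probes for 1 may also take up transcripts of another. Probe sets listed under several alpha genes at once are no members. There were 6 of these, with differences from -0.69 to 0.34, groups that overlapped and limma adjusted p from 0.483 to 0.892 with 8 arrays. Without BSKO 2 the differences ran from -0.33 to 0.27 and none passed (limma adjusted p from 0.158 to 0.887), while 1 of the 6, 1425613_at, had all BSKO arrays above the WT arrays (0.27).

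**Figure D3:**
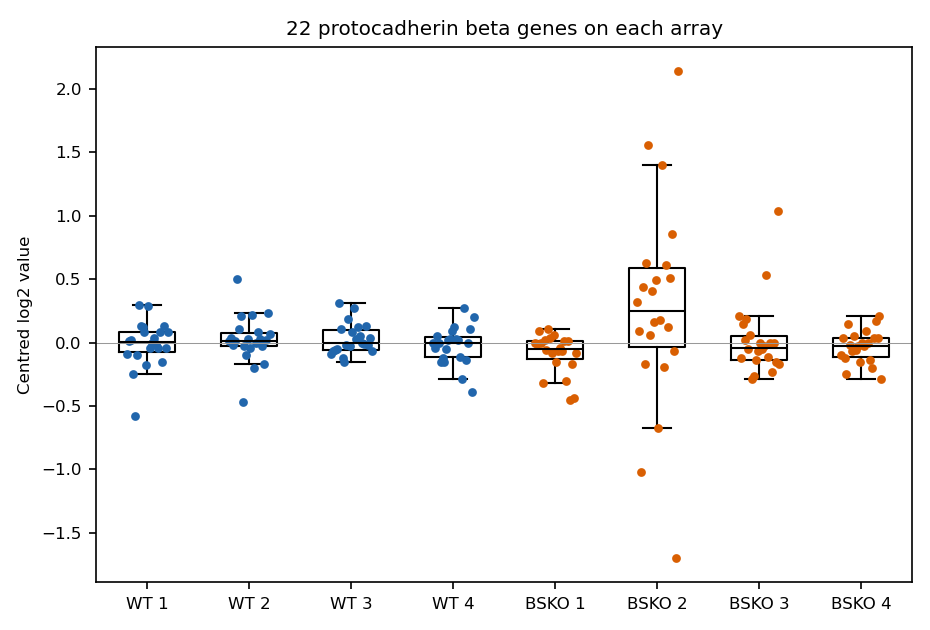
Centred log2 values (vertical axis) of the 22 protocadherin beta genes on each of the 8 arrays, a point per gene, with the median and quartiles as a box and whiskers to the farthest value within 1.5 box lengths. The points run from -1.70 to 2.14 on BSKO 2 and from -0.58 to 1.04 on the other 7 arrays.

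Set side by side, the classes differed in their largest differences more than in their medians. The groups did not overlap, with BSKO lower, for 4 of the 12 classical cadherins, 3 of the 8 non-clustered protocadherins, 0 of the 4 other cadherins and 0 of the 22 beta genes. These 7 of 46 genes (15.2%) were Cdh1, Cdh2, Cdh9, Cdh10, Pcdh15, Pcdh18 and Pcdh20, where 6.85% of all genes lay so. With BSKO higher it was 1 of 46 (2.17%), against 6.4% of all genes. Without BSKO 2 the counts were 9 lower (19.6%), with Pcdh8 and Pcdhb22 added, and 1 higher (2.17%), against 10.2% lower and 10.2% higher of all genes. By limma 0 of 46 genes passed with 8 arrays, with 8 (17.4%) at an unadjusted p under 0.05, against 12.2% of all genes. Without BSKO 2, 2 of 46 (4.35%) passed, and 11 (23.9%) had an unadjusted p under 0.05, against 21.2% of all genes. No test was made of a class against another or against all genes, and the members were chosen with earlier results known.

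The medians of the classical cadherins and of the beta genes changed side with BSKO 2. That of the 12 classical cadherins was 0.12 with 8 arrays and -0.11 without BSKO 2, and that of the beta genes 0.08 and -0.03. The non-clustered protocadherins had medians of -0.22 and -0.16, with 5 of 8 genes lower with 8 arrays. Without BSKO 2 they were split evenly, 4 lower and 4 higher. Pcdh20, Pcdh8, Pcdh18 and Pcdh15 were the lowest of these 8 genes in both fits. The other cadherins lay at -0.05 and -0.02. Over all genes the median was 0.03 and, without BSKO 2, 0.015. Of the 46 members 20 (43.5%) lay lower with 8 arrays and 29 (63.0%) without BSKO 2, against 45.2% and 46.4% of all genes.

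**Figure D4:**
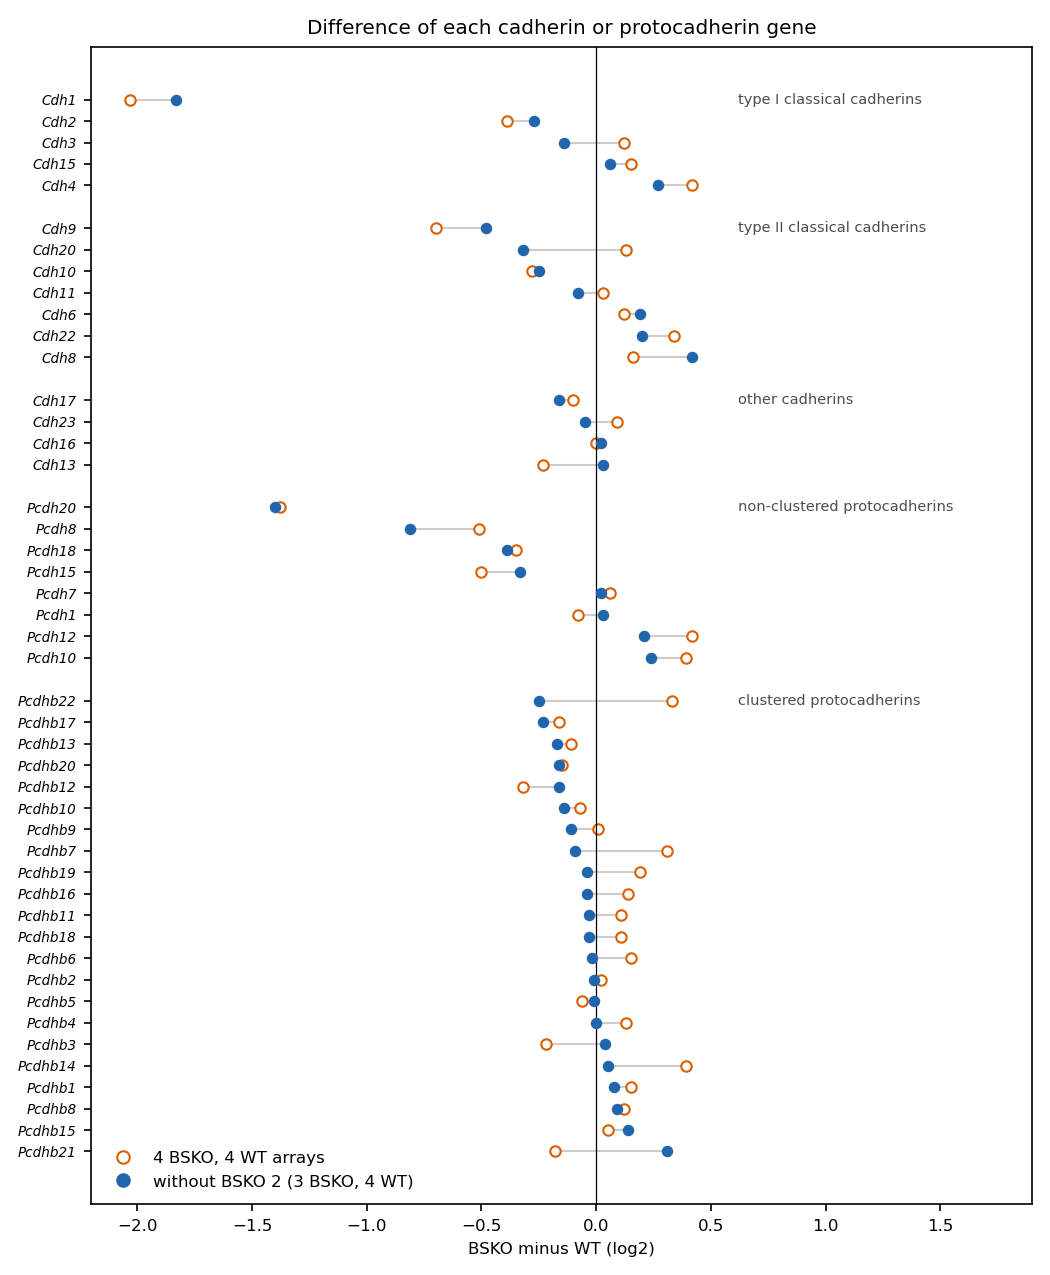
BSKO minus WT (log2, horizontal axis) of each of the 46 genes, grouped by class, with all 8 arrays (open circles) and without BSKO 2 (filled circles), joined by a line. Cdh1 and Pcdh20 lie farthest from 0, at -2.03 and -1.38 with 8 arrays, and the beta genes lie between -0.32 and 0.39.

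The partners and regulators of cadherins gave 1 call. Of the catenins and cadherin partners, which tie cadherins to actin, 13 of 15 listed genes were measured. Among these Nectin3, an adhesion protein of the immunoglobulin family found at junctions beside N-cadherin, fell without BSKO 2 (-0.45, SE 0.07, limma adjusted p = 0.0281), and with 8 arrays differed by -0.68 (adjusted p = 0.279). The list's median was -0.04 with 8 arrays and 0.01 without BSKO 2. The 4 of 9 desmosomal cadherins measured had medians of 0.07 and -0.11, and none passed. With 8 arrays the smallest p were those of Dsc3 (0.31, limma adjusted p = 0.589) and Dsc1 (0.09, 0.777), which without BSKO 2 differed by 0.07 and -0.05. There the smallest were those of Dsc2 (-0.35, limma adjusted p = 0.545) and Dsg2 (-0.17, 0.569).

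Nor did any gene of the other lists pass. Of the atypical cadherins 9 of 18 were measured (medians 0.03 with 8 arrays and 0.08 without BSKO 2). With 8 arrays the smallest p were those of Ret, the receptor of the GDNF family (-0.75, limma adjusted p = 0.441), and Celsr1 of planar cell polarity (0.43, 0.461), and without BSKO 2 these differed by -0.54 and 0.22. There the smallest p was that of Celsr3 (0.32, limma adjusted p = 0.144), whose BSKO arrays then all lay above the WT arrays. Of the proteases and secretase subunits that cleave cadherins 10 of 12 were measured (medians 0.05 and 0.02). With 8 arrays they were led by the metalloprotease gene Mmp14 (0.21, limma adjusted p = 0.407) and the secretase subunit Ncstn (0.37, 0.563), at 0.23 and 0.05 without BSKO 2.

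Genes for the choice of protocadherin promoters, 12 of 15 measured, had medians of -0.05 and 0.11. Among these Dnmt3a, a DNA methyltransferase, differed by 0.38 (limma adjusted p = 0.331) and by 0.46 (0.0805) without BSKO 2. Rad21, a cohesin subunit, differed by -0.33 (limma adjusted p = 0.407) and by -0.19 (0.127). Effectors below the protocadherins, 12 of 16 measured, had medians of 0.03 and -0.02. With 8 arrays Axin1 was at 0.35 (limma adjusted p = 0.426) and Abi1 of the WAVE complex at -0.16 (0.47), and without BSKO 2 at 0.22 and -0.14. The smallest p there was that of Marcks (-0.20, limma adjusted p = 0.136).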

How the data were processed

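Total RNA of whole brain from 8 male mice was hybridised to single-channel Affymetrix arrays, per the labels. The authors deposited log2 values made with RMA, per the submitters' processing notes. Its version is not given in the sources used here. In the table, all but 1 of the 22690 probe sets, not a member, have a median within 1e-05 of 0 over the 8 arrays, so levels cannot be compared between genes. Scanner files were not analysed here.

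Without 64 controls, 22626 probe sets were tested, unfiltered. Symbols came from the platform annotation: 20380 probe sets had 1 symbol, 691 several and 1555 none. RefSeq (GRCm38.p6) matched 20351 of the former by gene number, and no symbol changed. A gene's value is the mean of its probe sets (12393 genes). BSKO and WT arrays were compared in R 4.3.3 by lmFit and eBayes of limma 3.58.1, two-sided and without covariates. P-values were adjusted by Benjamini-Hochberg over all probe sets or all genes, at a threshold of 0.05. Single genes were compared by exact permutation. "Fell" and "passed" refer to this threshold. The block on replicate number was left out of the main fit. Deviations of same-numbered arrays correlated at 0.0858, 0.0562, 0.14 and 0.129. For differently numbered arrays within replicates 1 and 2, or within 3 and 4, the correlations were 0.0307 to 0.165. Python 3.11.15 with pandas 2.3.3 and matplotlib 3.10.9 made the tables and figures. Only the limma fit was tested on simulated data, drawn as independent noise, for whether it returned the added differences on average.

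Members, classes, lists and tests were chosen with earlier results of these data known. Given with the value on every array are each member called on a probe set or gene in either fit, and the 3 genes of each class with the smallest p over 8 arrays. Members whose groups did not overlap or whose probe sets disagreed are named too. Of each pathway list, called members or else the 2 with the smallest p over 8 arrays are named. Cdh3 beside Cdh1, the beta gene Pcdhb22, and Dsc2, Dsg2, Celsr3 and Marcks were added after their values were seen. The alternatives are listed with their effect in the closing section.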

Additional observations from a re-analysis of the deposited data

Results flagged for a closer look

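Among the 92 groups of 4 arrays (46 genes in each genotype), 13 held an array far from the other 3 by Dixon's criterion, which chance meets in about 1 in 20 groups. On BSKO 2 this was the case for 9 genes: Cdh3 (0.93), Cdh13 (-1.05), Cdh20 (1.63), Cdh23 (0.53), Pcdhb6 (0.63), Pcdhb7 (1.56), Pcdhb13 (0.18), Pcdhb14 (1.40) and Pcdhb22 (2.14). The beta cluster, with 22 of the 46 genes, held 5 of these 9. Over all genes BSKO 2 lay outside the range of the other arrays for 75.0%. Dixon's criterion was applied to the members only, so whether the beta cluster differs from other genes here was not tested. Pcdh20 and Cdh1 had no array flagged by this criterion in either genotype. In WT there were 3, namely Cdh3 on WT 2 (0.13), Cdh11 on WT 3 (-0.15) and Pcdhb14 on WT 2 (-0.20). The last was Pcdhb8 on BSKO 3 (-0.29).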

How the results depend on the processing

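The counts of member calls moved with the settings. With 8 arrays, 0 probe sets passed with limma, and 4 with quantile normalization, 1 with trend and robust settings, 11 with array weights and 1 with a term that sets replicates 1 and 2 apart from 3 and 4. Leaving out single arrays gave 0 to 2. Without BSKO 2 the 2 probe sets became 1 with trend and robust settings, 13 with array weights, 0 with the replicate block, 5 with that term, 0 with the striatal covariate, 8 at an adjusted p under 0.10 and 0 with a minimum fold of 1.2. Leaving out a further array gave 0 to 6. For genes with 8 arrays, in place of 0, there were 3 with quantile normalization, 1 with trend and robust settings, 7 with array weights, 1 with that term and 1 at 0.10, and 0 to 2 with single arrays left out. For genes without BSKO 2, in place of 2, there were 8 with array weights, 3 with that term (Cdh9 added), 2 with trend and robust settings (Cdh1 in place of Pcdh8), 0 with the replicate block, 0 with the covariate, 6 at 0.10 and 0 with the minimum fold, and 0 to 4 with a further array left out. Over all 22626 probe sets the calls moved as well. With 8 arrays, in place of 7, there were 678 with quantile normalization, 108 with trend and robust settings, 2617 with array weights and 84 with the term. Single arrays left out gave 0 to 369. Without BSKO 2, in place of 369, there were 327 with trend and robust settings, 3005 with array weights, 0 with the replicate block, 744 with the term, 2 with the covariate, 1131 at 0.10 and 17 with the minimum fold. A further array left out gave 19 to 1069. Of all 12393 genes, 9 passed with 8 arrays. Quantile normalization gave 413, trend and robust settings 48, array weights 1234, the term 78 and the 0.10 threshold 58. Single arrays left out gave 2 to 266. Without BSKO 2, 266 of all genes passed. Array weights gave 1478, the term 565 and trend and robust settings 235. The replicate block gave 4, the covariate 0, the 0.10 threshold 734 and the minimum fold 10. Leaving out BSKO 1 as well gave 814, and leaving out any other array as well gave 13 to 59. The member genes that passed with array weights in both fits were Cdh1, Cdh2, Cdh10, Pcdh8, Pcdh15, Pcdh18 and Pcdh20.

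Class medians also moved. For type I cadherins with 8 arrays (0.12) the median was -0.08 with quantile normalization, -0.14 with array weights and -0.14 to 0.23 with single arrays left out, and without BSKO 2 (-0.14) it was -0.06 with the covariate. For type II with 8 arrays (0.12) it was -0.02 with quantile normalization, -0.16 with array weights, 0.06 with the covariate and -0.08 to 0.12 with arrays left out, and without BSKO 2 (-0.08) -0.19 with array weights and -0.18 to 0.00 with arrays left out. For the other cadherins with 8 arrays (-0.05) it was 0.06 with the covariate and -0.10 to 0.01 with arrays left out. For the non-clustered protocadherins with 8 arrays (-0.22) it was -0.15 with the covariate, -0.08 over probe sets and -0.25 to -0.16 with arrays left out. For the beta genes it was -0.06 with array weights and -0.03 to 0.11 with arrays left out with 8 arrays (0.08), and without BSKO 2 (-0.03) -0.02 with quantile normalization, the replicate block or the term, -0.06 with array weights and -0.06 to -0.02 with arrays left out.

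Among the 16 genes given by array, Cdh1, Cdh2, Cdh4, Cdh9, Cdh10, Pcdh8, Pcdh15, Pcdh18, Pcdh20, Pcdhb12 and Pcdhb20 kept their direction under every setting run. The other 5 turned in at least 1. Among them were Cdh22 without BSKO 2 with the covariate (-0.23), Cdh13 with 8 arrays (0.25 on probe set 1431824_at, and -0.35 to 0.03 with arrays left out) and without BSKO 2 (-0.02 with array weights, -0.01 with the covariate, -0.26 on 1454015_a_at, -0.01 to 0.07 with arrays left out), and Cdh17 with 8 arrays with the covariate (0.03). Cdh23 turned with 8 arrays (-0.01 with quantile normalization, -0.03 with array weights, -0.05 to 0.16 with arrays left out) and without BSKO 2 (0.04 with the covariate, 0.03 on 1452028_a_at). Pcdhb1 was 0.00 with array weights and 8 arrays, and without BSKO 2 -0.02 with array weights and -0.01 to 0.15 with arrays left out. The causes were not tested. With the replicate block Pcdh20 without BSKO 2 was -1.26 (limma adjusted p = 0.0715) and Pcdh8 -0.85 (0.13). The numbers did not pair single arrays, since the deviations of WT 1, for example, correlated with those of BSKO 2 as well as with those of BSKO 1. They did set replicates 1 and 2 apart from 3 and 4. Between WT and BSKO arrays of the same side the correlations were 0.0307 to 0.165. Across the sides they were -0.147 to -0.0374. The labels name no batch, and the origin of this split was not tested. The planned filter by brightness could not be run on centred values.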
